A study of Capra hircus with 2 samples.

Results

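ALCAM, NECTIN3, JAM2 and LSAMP are immunoglobulin superfamily cell adhesion genes, and they were followed here in single ovarian granulosa cells of the goat. They were chosen by name and are 4 of the 154 complete gene rows of the deposited table. Each row gives 1 gene in 10451 cells, where the study's design text speaks of about 12000. The cells came from Ji'ning grey goats in 2 libraries, 1 for goats bearing more than 3 kids per birth (high fertility, 7106 cells) and 1 for goats bearing fewer than 2 (low fertility, 3345 cells). Both libraries were made from cells loosened with a trypsin-like enzyme, with the 10x Genomics 3' kit, which counts transcripts as unique molecular identifiers (UMIs). No treatment is named, and neither the age of the goats nor how many stand behind a library is given in the sources used here. Each group has a single library and thus no replicate. No test between the groups was run, no p-value is given, and each interval below is a 95% interval that covers counting error only. A difference between the libraries cannot be told apart from a difference between single goats, dissections or preparations.

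Proteins with immunoglobulin folds on the cell surface hold cells together by binding like or related proteins on a neighbour. ALCAM, also called CD166, binds itself and also binds CD6 on T cells. Nectin 3, the product of NECTIN3, binds other nectins across the gap between cells and is tied to the actin skeleton through afadin at adherens junctions. JAM2 is a junctional adhesion molecule known from endothelium and from tight junctions, and LSAMP belongs to the IgLON group, which is anchored to the membrane by a lipid and is best known from neurons. Granulosa cells form a layered epithelium around the oocyte and are joined by adherens and gap junctions. In the RefSeq table of assembly ARS1.2, ALCAM lies next to CBLB, NECTIN3 next to CD96, JAM2 next to MRPL39 and LSAMP between GAP43 and IGSF11, and each of these but GAP43 and IGSF11 is also the neighbouring row of the deposited table.

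The libraries held 63769786 UMIs (high fertility) and 45674506 UMIs (low fertility). The median cell had 7214.5 UMIs in the former and 11080 UMIs in the latter. Shares of cells with a UMI depend on depth and are given as found unless matched depth or a draw of UMIs is named. Of the granulosa marker genes on a fixed list (FSHR, CYP19A1, AMH and 8 others), none is among the 154 rows, and the same held for theca and stroma, endothelium and oocyte markers, so the labelled cell type was not checked here and no cell class was named. Of the leukocyte list SAMSN1, CD96 and CD80 are rows, and of the surface epithelium list UPK1B. The libraries had 27 cell barcodes in common. Leaving those cells out changed the 4 library ratios given below by less than their counting intervals.

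ALCAM was the most used of the 4 genes in both libraries, followed by LSAMP, NECTIN3 and JAM2. ALCAM stood at 13.9 CPM (UMIs of the gene per 1000000 UMIs of the library) in the high fertility library (13.0 to 14.9, 889 UMIs) and at 7.12 CPM in the low fertility library (6.36 to 7.93, 325 UMIs). LSAMP stood at 5.35 CPM (4.79 to 5.95, 341 UMIs) and 2.32 CPM (1.90 to 2.81, 106 UMIs). NECTIN3 stood at 2.21 CPM (1.86 to 2.61, 141 UMIs) and 1.53 CPM (1.19 to 1.94, 70 UMIs). JAM2 was close to the limit of detection, at 0.329 CPM (0.204 to 0.503) on 21 UMIs and 0.109 CPM (0.0355 to 0.255) on 5 UMIs, where a count of 0 would allow up to 0.047 and 0.0657 CPM. The intervals of neighbours in this order did not overlap in the high fertility library. In the low fertility library those of LSAMP and NECTIN3 did. As each UMI stands for the 3' end of 1 transcript, these levels are not divided by gene length. Of all UMIs of the 4 genes, ALCAM took 63.9% (high fertility) and 64.2% (low fertility), LSAMP 24.5% and 20.9%, NECTIN3 10.1% and 13.8%, and JAM2 1.51% and 0.988%.

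Among 14 rows of a fixed list of 55 immunoglobulin superfamily surface genes, CD200, a ligand that restrains myeloid cells, was higher than ALCAM in both libraries, at 17.3 and 13.4 CPM. CD47, a signal against being engulfed, stood at 6.73 and 8.91 CPM, below ALCAM in the high and above it in the low fertility library. The guidance receptors ROBO1 (4.97 CPM) and ROBO2 (4.80 CPM) lay near and below LSAMP in the high fertility library. In the low fertility library ROBO1 (2.82 CPM) and ROBO2 (4.01 CPM) stood above LSAMP (2.32 CPM). There the interval of ROBO2 (3.45 to 4.63) did not overlap that of LSAMP (1.90 to 2.81). CADM2, IGSF11, HHLA2, CD96, CD80 and BOC all stayed below 1 CPM in both libraries, as JAM2 did. Among 19 junction partners and scaffolds TIAM1 was the single row, and none of 8 integrin subunits was one.

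**Figure D1:**
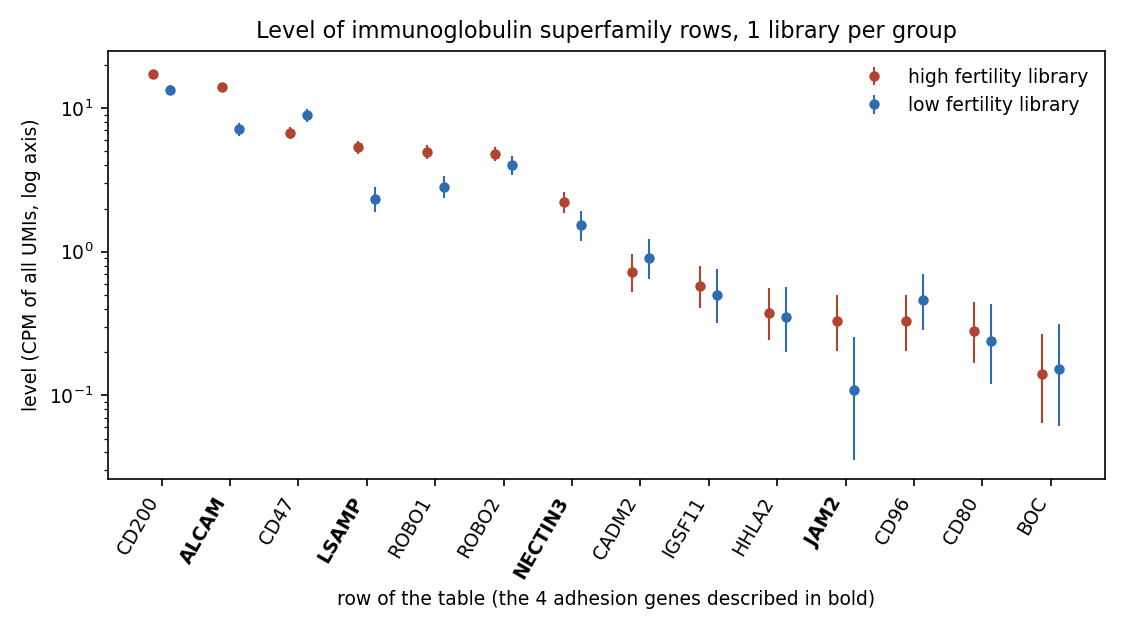
Level in CPM (log axis) of the 14 immunoglobulin superfamily rows in the high and low fertility library, in order of the high fertility level, with points for 1 library each and bars for the 95% Poisson counting interval. ALCAM is second to CD200 in the high fertility library at 13.9 CPM, and JAM2 lies at 0.329 and 0.109 CPM.

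A UMI of at least 1 of the 4 genes was found in 14.2% of the high fertility cells and 11.6% of the low fertility cells, not matched for depth. ALCAM was found in 635 cells of the high fertility library (8.94%, exact binomial interval 8.28% to 9.62%) and in 246 of the low (7.35%, 6.49% to 8.29%). After drawing 2000 UMIs from each cell, which left out 209 and 132 shallower cells, the expected shares were 2.58% and 1.56%. LSAMP was found in 250 cells (3.52%) and 84 cells (2.51%), with 1.18% and 0.490% expected after the draw. NECTIN3 was found in 138 cells (1.94%) and 68 cells (2.03%), with 0.480% and 0.336% after the draw. JAM2 was found in 20 and 5 cells. What share free RNA by itself would give is not known here, as the cells could not be put into classes. On the deposited natural log scale ALCAM had a mean and SD over cells of 0.0753 ± 0.270 in high and 0.0518 ± 0.213 in low fertility cells, against LSAMP with 0.0335 ± 0.197 and 0.0154 ± 0.113, NECTIN3 with 0.0145 ± 0.116 and 0.0110 ± 0.0863, and JAM2 with 0.00209 ± 0.0446 and 0.000628 ± 0.0172.

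The genes also differed in how their UMIs were gathered in cells. ALCAM and LSAMP were gathered in fewer cells than depth alone would give, and NECTIN3 was not. Had the UMIs been spread over cells in proportion to depth, ALCAM would have been found in 808 high and 299 low fertility cells, so the observed numbers were 0.786 and 0.821 of that. Cells with 2 or more ALCAM UMIs numbered 156 and 51, against 72.9 and 23.2 under such a spread, and the most in a single cell was 10 and 6 UMIs. LSAMP was found in 0.762 and 0.815 of the cells so expected. It had 49 and 17 cells with 2 or more UMIs, against 12.2 and 2.80, and reached 10 and 4 UMIs in a cell. NECTIN3 was found in 0.994 and 0.989 of the cells expected, and no cell held more than 2 of its UMIs.

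All 4 genes stood at a higher level in the high fertility library, and ALCAM, LSAMP and JAM2 did so by more than 1.5-fold. The high to low ratio of ALCAM was 1.96 (1.72 to 2.23), that of LSAMP 2.30 (1.85 to 2.89), that of JAM2 3.01 (1.10 to 10.2, on 21 and 5 UMIs) and that of NECTIN3 1.44 (1.08 to 1.95). Among the 141 rows with a sum of 20 or more UMIs, 12.8% passed 1.5-fold towards the high fertility library and 9.93% towards the low. The median ratio was 2.13 over the 4 genes, 1.10 over the 141 rows and 1.15 over 9 other immunoglobulin superfamily rows, among them ROBO1 at 1.76 (1.43 to 2.18) and CD47 at 0.755 (0.658 to 0.867). The 18 rows with at least 50 CPM in both libraries had a median ratio of 1.12 (0.16 on the log2 scale). Relative to that shift ALCAM stood at 1.75, LSAMP at 2.06, JAM2 at 2.69 and NECTIN3 at 1.29.

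The ALCAM difference lay in the deeper cells. In cells of 7500 or more UMIs (3340 high and 2407 low fertility cells) the level of ALCAM was 14.5 against 6.41 CPM, which gives a ratio of 2.26 (1.96 to 2.62). In cells below 7500 UMIs (3766 and 938 cells) it stood at 12.5 against 14.5 CPM, and the ratio was 0.867 (0.648 to 1.18). Both intervals do not overlap, but the bound was chosen after the values by depth were seen and the difference between the ratios was not tested. By depth bin, ALCAM ran between 10.6 and 19.0 CPM in the high fertility library with no steady trend. In the low fertility library ALCAM stood at 19.0 CPM below 2500 UMIs (9 UMIs of ALCAM) and 14.4 CPM at 5000 to 7500 UMIs. It was at 5.50 CPM at 10000 to 15000, 7.14 CPM at 15000 to 20000 and 9.46 CPM at 20000 to 30000 UMIs. Above 30000 UMIs it was at 4.57 CPM, so the deeper bins had no steady trend there either. In 6 of 8 bins the high fertility value of ALCAM was the larger one.

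From 2500 UMIs on, LSAMP was lower in deeper cells of the high fertility library. It stood there at 6.80 CPM below 2500 UMIs (5 UMIs of LSAMP), 11.9 CPM at 2500 to 5000, 7.28 CPM at 5000 to 7500, 4.99 CPM at 10000 to 15000 and 1.77 CPM above 30000 UMIs. The low fertility library had 0 UMIs of LSAMP below 2500 UMIs per cell and 2.57 CPM at 2500 to 5000 (3 UMIs). Beyond these bins LSAMP stood there at 6.33 CPM at 5000 to 7500, 3.04 CPM at 7500 to 10000, 1.89 CPM at 10000 to 15000 and 2.05 CPM above 30000. Below 7500 UMIs LSAMP was at 8.67 CPM in the high and 4.49 CPM (18 UMIs) in the low fertility library. In deeper cells it was at 3.98 and 2.11 CPM, so it was lower there in both libraries. In the deepest cells the intervals of both libraries overlapped (0.881 to 3.16 and 1.29 to 3.11 CPM). The LSAMP ratio was 1.93 (1.18 to 3.34) below 7500 UMIs and 1.89 (1.45 to 2.46) at or above, less than the 2.30 over all cells, and standardised over the 8 bins it was 1.73. NECTIN3 stayed between 1.24 and 3.03 CPM in the high fertility library from 2500 UMIs on and between 1.12 and 2.57 CPM in the low. Its ratio was 1.45 (0.651 to 3.80) in the shallower and 1.38 (0.989 to 1.92) in the deeper cells, so within either group of cells the interval held 1. JAM2 had 8 UMIs against 0 below 7500 UMIs, and 13 against 5 in the deeper cells.

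**Figure D2:**
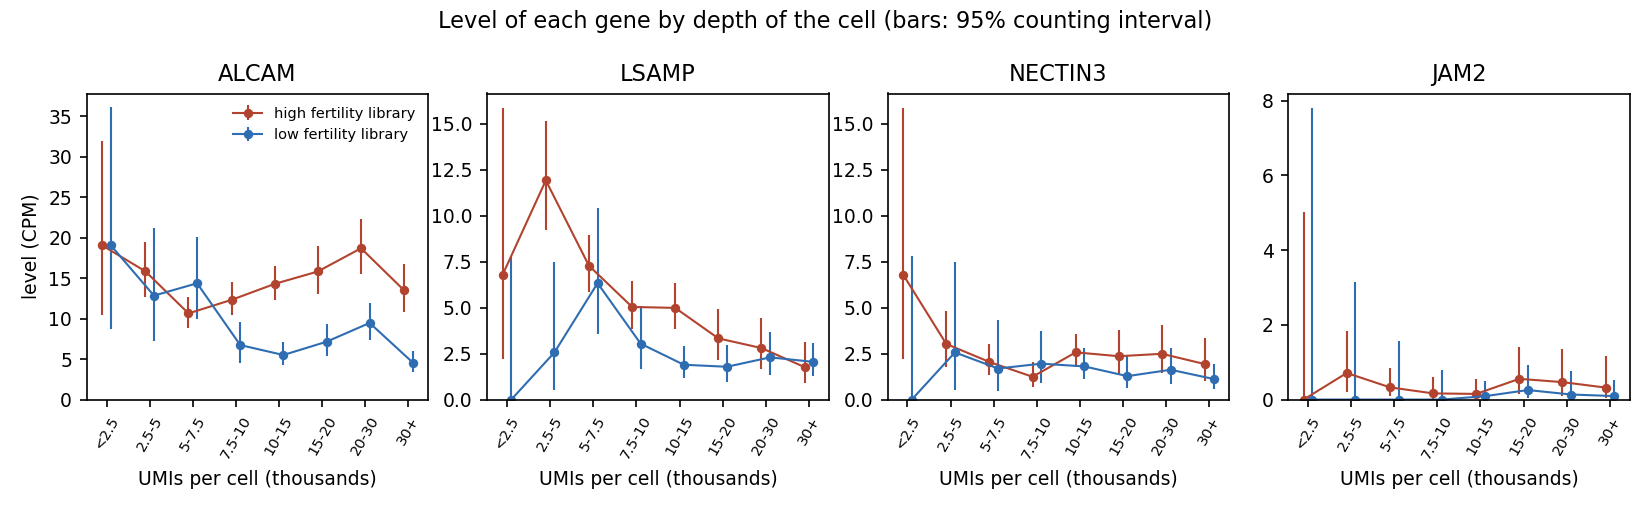
Level in CPM of ALCAM, LSAMP, NECTIN3 and JAM2 (1 panel each, own vertical scale) by UMIs per cell in 8 bins, for the high and low fertility library, with bars for the 95% Poisson counting interval. The ALCAM points of both libraries lie together below 7500 UMIs and part above, while LSAMP in the high fertility library goes from 11.9 CPM at 2500 to 5000 UMIs to 1.77 CPM above 30000 UMIs.

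Few cells held more than 1 of the 4 genes, each of which was by itself found in a small share of cells. ALCAM and LSAMP in the high fertility library were the only pair that departed from the number expected at matched depth beyond counting error. No cell held 3 of them, and 31 high and 15 low fertility cells held 2. To take account of depth, the cells with both genes of a pair were divided by the number expected from the share of each gene within 20 bins of equal cell number. ALCAM and LSAMP, the most used pair, were found together in 8 high fertility cells where 25.9 were expected, a ratio of 0.309 (0.133 to 0.609). Those 8 cells were 1.26% of the cells with ALCAM and 3.20% of those with LSAMP. Over all pairs of rows with at least 5 expected cells in that library, 5.34% lay at 1/1.5 or less and 4.67% at 1.5 or more. Both were held by 6 cells of the low fertility library where 7.59 were expected, a ratio of 0.791 (0.290 to 1.72), which shows no departure beyond counting error. There the shares over all pairs were 5.39% and 3.96%. The difference between the libraries was not tested, and their intervals overlapped.

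The remaining pairs rest on few cells. ALCAM and NECTIN3 shared 14 high fertility cells with 18.1 expected (0.773, 0.423 to 1.30) and 3 low fertility cells with 6.23 expected (0.482, 0.0994 to 1.41). NECTIN3 and LSAMP shared 7 cells with 5.40 expected (1.30, 0.521 to 2.67) and 6 cells with 2.66 expected (2.25, 0.827 to 4.91). None of the 4 intervals excluded 1. JAM2 shared 2 high fertility cells with ALCAM, where 2.97 were expected, and no cell with NECTIN3 or LSAMP, where fewer than 1 was expected in either library.

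**Figure D3:**
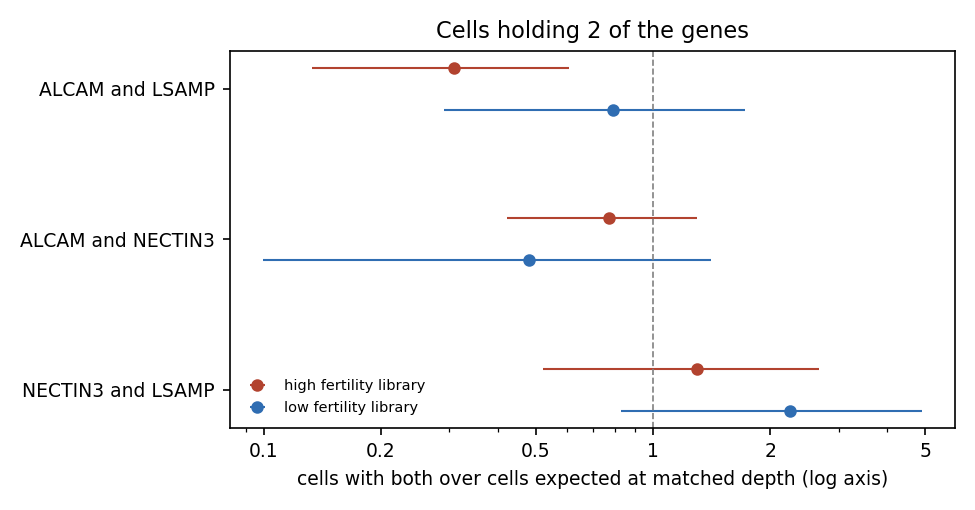
Cells with UMIs of both genes over the number expected at matched depth (log axis) for 3 pairs in the high and low fertility library, with bars for the exact 95% Poisson interval of the observed number and a dashed line at 1. The ALCAM and LSAMP interval of the high fertility library, 0.133 to 0.609, is the one that does not reach 1.

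Cells with ALCAM held more of 10 other rows, among them SAMSN1, TIAM1, TMEM50B, IFNGR2 and CCDC80. For each row, the UMIs in cells with the gene were divided by those expected from cells without it in the same 20 depth bins. A row was counted if 10 or more UMIs were expected in both libraries, and called higher or lower at 1.5-fold in both. The expected UMIs were taken as fixed and UMIs of the same cell as independent, so the intervals are too narrow. They do not cover the spread between cells, which matters for rows gathered in few cells. CCDC80, for example, reached 28 UMIs in a high fertility cell and 20 in a low fertility cell. Of 74 rows counted for ALCAM, 10 were higher (13.5%) and 0 lower (0%). When each of the 83 rows found in at least 50 cells of both libraries (and in no more than 50% of the cells of either) was taken in turn as the held gene, 3.28% of the row counts were higher and 3.27% lower, and ALCAM had rank 5 of the 83 by its percentage higher. The median ratio over the 74 rows was 1.04 for high and 1.03 for low fertility cells.

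SAMSN1, an adaptor gene of blood cells, was the symbol row most like ALCAM. Of the 78 held genes for which SAMSN1 could be counted, 12 had it higher in both libraries by the same rule. CCDC80 was higher for 8 of 82 held genes. SAMSN1 had 247 UMIs in ALCAM cells with 71.4 expected in the high fertility library (3.46, 3.04 to 3.92) and 153 with 45.6 expected in the low (3.36, 2.85 to 3.93). SAMSN1 was found in 21.1% of the ALCAM cells against 6.94% of the others in the former and in 29.7% against 9.45% in the latter. These shares are not matched for depth, as the median ALCAM cell had 10487 UMIs against 7045 in the former and 14308 against 10863 in the latter. At matched depth 134 high fertility ALCAM cells had SAMSN1 where 44.4 were expected, and 73 low fertility ones where 24.6 were expected. TIAM1, an exchange factor that activates the small GTPase RAC1 and acts at junctions, had ratios of 2.13 (1.70 to 2.63) and 2.83 (2.10 to 3.74). TMEM50B, a small transmembrane protein, had 2.43 (2.10 to 2.80) and 2.20 (1.77 to 2.71), and IFNGR2, part of the receptor for interferon gamma, 2.08 (1.93 to 2.24) and 2.02 (1.83 to 2.22). CCDC80, a secreted protein of the matrix, had 2.75 (2.56 to 2.95) and 1.72 (1.38 to 2.12). All of these ratios were above 1.5 with intervals above 1.

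ADAMTS1, a protease that cleaves versican around ovulation, also passed the rule, at 2.29 (2.02 to 2.59) and 2.02 (1.53 to 2.61), but its low fertility value rested on 1 cell. That cell held 35 of the 57 ADAMTS1 UMIs in low fertility ALCAM cells, and without it the ratio was 0.778. Counted as cells, ADAMTS1 was found in 11 low fertility ALCAM cells where 11.2 were expected (0.983), and in 71 high fertility ALCAM cells where 50.8 were expected (1.40). The rows ENSCHIG00000015902, at 3.10 and 5.23, and ENSCHIG00000021896, at 2.93 and 2.05, have no symbol in the table. The 2 rows left of the 10 are ATP6V1A, a subunit of the proton pump of lysosomes (1.59 and 2.23), and 1 more row without a symbol. ATP6V1A is beyond the number of rows the rule for naming allows and is named after its values were seen. Counted as cells with a UMI in place of UMIs, 5 rows were higher in both libraries: SAMSN1, TIAM1, TMEM50B and both rows named by identifier.

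COL8A1, a collagen chain named by rule for all 4 genes, was higher in ALCAM cells of the high fertility library (2.39, 2.08 to 2.74) and at 1.05 (0.666 to 1.58) in those of the low. The interval of the low fertility library does not reach that of the high, though the difference was not tested. COL8A1 reached 18 UMIs in a high fertility cell and 22 in a low fertility cell, a spread these intervals do not cover. CD47 had 1.45 (1.13 to 1.83) and 2.12 (1.66 to 2.67), and CD200 1.01 (0.859 to 1.18) and 0.524 (0.356 to 0.744). ROBO1 had 0.713 (0.481 to 1.02) and 1.12 (0.577 to 1.95), and ROBO2 0.609 (0.386 to 0.913) and 1.28 (0.782 to 1.98). The leukocyte genes CD96 (3 and 0 UMIs) and CD80 (2 and 3 UMIs) were too rare in ALCAM cells to compare.

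The ratios of all 7 symbol rows of the 10 were larger in cells with 2 or more ALCAM UMIs than in cells with 1, in both libraries. For ADAMTS1 in the low fertility library this rested on 1 cell. Many intervals overlapped, among them those of SAMSN1 in the high and of TMEM50B in the low fertility library. Low fertility ADAMTS1 was at 1.03 in cells with 1 ALCAM UMI and at 4.77 in those with 2 or more, on 36 UMIs where 7.54 were expected. The latter value again held the cell with 35 UMIs, and without that cell the order turned. In the high fertility library, SAMSN1 was at 3.17 (2.72 to 3.68) in the 479 cells with 1 ALCAM UMI and at 4.12 (3.23 to 5.19) in the 156 cells with 2 or more. In the low fertility library it was at 2.43 (1.95 to 3.00) in 195 cells and at 6.79 (5.24 to 8.65) in 51 cells. TMEM50B went from 1.96 (1.61 to 2.36) to 3.56 (2.83 to 4.42) in the high and from 1.86 (1.40 to 2.41) to 3.20 (2.20 to 4.50) in the low fertility library. TIAM1 went from 1.82 to 2.83 and from 2.45 to 3.87, IFNGR2 from 1.95 to 2.37 and from 1.82 to 2.65, and CCDC80 from 2.51 to 3.25 and from 1.67 to 1.95. LSAMP was at 0.447 (0.238 to 0.764) in high fertility cells with 1 ALCAM UMI and at 0.0971 (0.00246 to 0.541) in those with 2 or more, on 1 UMI, and these intervals overlapped. Taken from the side of LSAMP, ALCAM was at 0.184 (0.0675 to 0.401) in high fertility cells with 1 LSAMP UMI and at 0.414 (0.0853 to 1.21) in those with 2 or more, so no order by UMIs held can be read. LSAMP in the low fertility library had 4 UMIs where 7.80 were expected and 3 where 2.32 were expected, too few to tell a direction.

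**Figure D4:**
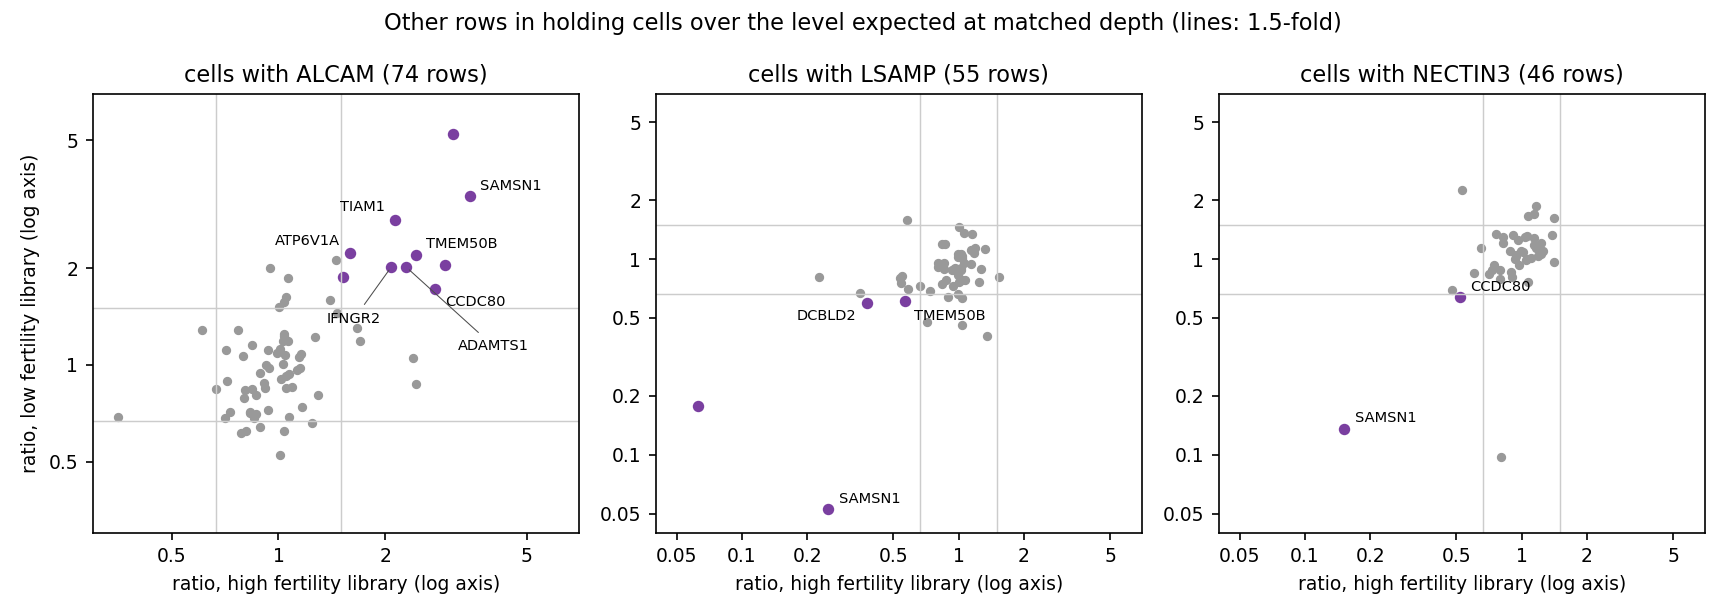
Each point is 1 other row, placed by its UMIs in cells with ALCAM, LSAMP or NECTIN3 over those expected at matched depth, in the high (horizontal, log axis) and low fertility library (vertical, log axis); lines mark 1.5-fold and purple points pass it in both libraries. For ALCAM 10 of 74 rows lie in the upper right, with SAMSN1 at 3.46 and 3.36, while SAMSN1 lies in the lower left for LSAMP and NECTIN3. The ALCAM panel has a narrower scale.

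ALCAM was higher both in cells with SAMSN1 and in cells with CCDC80, which overlapped in part. For CCDC80 alone in the low fertility library, ALCAM stayed short of 1.5-fold. In the high fertility library 476 cells had SAMSN1 without CCDC80, 725 had CCDC80 without SAMSN1, 107 had both and 5798 neither. ALCAM was found in 20.2% (16.7% to 24.1%), 20.6% (17.7% to 23.7%), 35.5% (26.5% to 45.4%) and 6.07% (5.47% to 6.72%) of these in turn, at median depths of 6762.5, 10644, 10399 and 6948 UMIs. This views the same shared cells as the SAMSN1 and CCDC80 ratios in ALCAM cells given above, from the other side. It adds only the split by both rows. Relative to cells with neither at matched depth, ALCAM was at 3.69 (3.08 to 4.38) with SAMSN1 alone, 2.84 (2.51 to 3.20) with CCDC80 alone and 3.84 (2.82 to 5.11) with both. In the low fertility library the same ratios were 3.93 (3.13 to 4.87) on 315 cells, 1.44 (1.01 to 1.99) on 308 cells and 6.57 (4.55 to 9.18) on 51 cells. The intervals of both libraries overlapped for SAMSN1 alone and for both genes and did not for CCDC80 alone. These differences were not tested, and the intervals do not cover the spread between cells. Cells with neither still held 50.2% of all high fertility and 52.6% of all low fertility UMIs of ALCAM. In them ALCAM stood at 9.19 CPM (8.36 to 10.1) against 4.97 CPM (4.26 to 5.78).

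When all cells with SAMSN1 or CCDC80 were left out, the rows higher in ALCAM cells in both libraries numbered 4 of 57, of which TMEM50B (2.62 and 2.08), IFNGR2 (2.26 and 1.86) and ADAMTS1 (2.15 and 3.53) had been among the 10 and FILIP1L, named after its values were seen, had not. The low fertility ADAMTS1 value again rested on the cell with 35 UMIs, without which it was 0.657. SAMSN1 and CCDC80 are at 0 by construction there, and of the 8 rows left of the 10, 5 still met the minimum of expected UMIs and 6 were past 1.5-fold in both libraries whatever the number expected, ADAMTS1 included. This choice of cells was made after the data were seen.

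Cells with LSAMP and cells with NECTIN3 were poor in SAMSN1, as were cells with many other rows. Of the 78 held genes for which SAMSN1 could be counted, 38.5% had it 1.5-fold or more lower in both libraries, and LSAMP had rank 6 and NECTIN3 rank 7 from the lowest. LSAMP cells held 9 SAMSN1 UMIs where 35.9 were expected in the high fertility library (0.251, 0.115 to 0.476) and 1 where 19.0 were expected in the low (0.0527, 0.00134 to 0.294). NECTIN3 cells held 3 where 19.7 were expected (0.152, 0.0314 to 0.445) and 2 where 14.7 were expected (0.136, 0.0165 to 0.491). The same link can be viewed from the side of SAMSN1. Of the cells with SAMSN1 and without CCDC80, LSAMP was found in 5 of 476 and 1 of 315, and NECTIN3 in 2 of 476 and 1 of 315. In cells with neither, LSAMP was found in 3.88% and 2.66% and NECTIN3 in 2.14% and 2.21%. The depths were close, at medians of 6762.5 and 6948 UMIs in the high and 10857 and 10588 UMIs in the low fertility library. Cells with neither held 91.2% and 85.8% of the LSAMP UMIs and 89.4% and 87.1% of the NECTIN3 UMIs. They were 5798 of 7106 high and 2671 of 3345 low fertility cells, so a gene spread over all cells would also have most of its UMIs there.

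**Figure D5:**
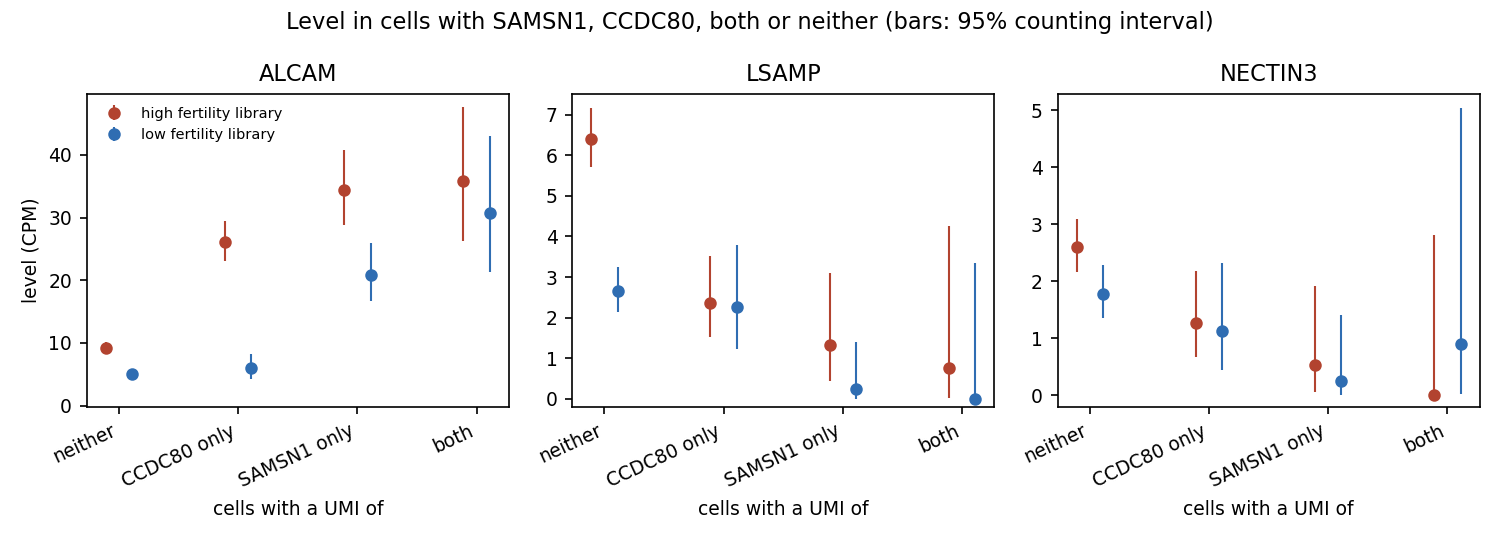
Level in CPM of ALCAM, LSAMP and NECTIN3 (own vertical scale each) in cells with a UMI of neither SAMSN1 nor CCDC80, of CCDC80 alone, of SAMSN1 alone and of both, for the high and low fertility library, with bars for the 95% Poisson counting interval. ALCAM goes from 9.19 CPM with neither to 34.4 CPM with SAMSN1 alone in the high fertility library, and LSAMP from 6.41 to 1.32 CPM.

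Of 55 rows counted for LSAMP, 0 were higher in both libraries (0%) and 4 lower (7.27%). Besides SAMSN1 these were DCBLD2, a transmembrane protein, at 0.377 (0.236 to 0.571) and 0.594 (0.332 to 0.979), TMEM50B at 0.568 (0.331 to 0.910) and 0.610 (0.292 to 1.12), and ENSCHIG00000015902 at 0.0629 (0.00159 to 0.351) and 0.178 (0.0216 to 0.644). SAMSN1, TMEM50B and ENSCHIG00000015902 were also among the 10 rows higher in ALCAM cells. CCDC80 was at 0.352 (0.251 to 0.479) in LSAMP cells of the high and at 0.673 (0.377 to 1.11) in those of the low fertility library, just short of the rule in the latter. COL8A1 was at 0.385 (0.199 to 0.673) and 0.803 (0.295 to 1.75). The median ratio over the 55 rows was 0.989 and 0.879. Without the cells holding SAMSN1, DCBLD2 was the 1 row of 52 lower in both libraries, while ENSCHIG00000015902, at 0 and 0.357, missed the minimum of expected UMIs. Counted as cells none of 48 rows was lower, as TMEM50B (0.703 and 0.625) and DCBLD2 (0.608 and 0.754) did not reach 1.5-fold in both libraries, and SAMSN1 (0.285 and 0.104) and ENSCHIG00000015902 (0.0884 and 0.272) did but missed the minimum.

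Of 46 rows counted for NECTIN3, 0 were higher in both libraries (0%) and 2 lower (4.35%), SAMSN1 and CCDC80, the latter at 0.518 (0.379 to 0.691) and 0.639 (0.306 to 1.17). Counted as cells, CCDC80 was at 0.493 and 0.779. COL8A1 was at 0.181 (0.0588 to 0.422) on 5 UMIs in the high and at 1.51 (0.691 to 2.87) on 9 UMIs in the low fertility library. Of the adhesion list, only CD200 and CD47 had at least 10 expected UMIs in both libraries for NECTIN3. CD200 was at 1.19 (0.851 to 1.61) and 1.04 (0.607 to 1.67), which does not exceed counting error. CD47 was at 0.798 (0.365 to 1.52) and 0.882 (0.423 to 1.62), and its intervals held 1 as well. For JAM2, held in 20 and 5 cells, 10 rows could be counted, and 0 were higher (0%) and 0 lower (0%).

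ENSCHIG00000012599, an abundant row of the table that lies next to NECTIN3, was also named by rule. It was at 1.70 (1.68 to 1.71) and 1.19 (1.17 to 1.20) in ALCAM cells, at 0.665 (0.647 to 0.682) and 0.733 (0.714 to 0.751) in LSAMP cells and at 0.744 (0.723 to 0.766) and 0.938 (0.913 to 0.963) in NECTIN3 cells. Its many UMIs make these intervals narrow, but they do not cover the spread between cells.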

How the data were processed

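Single granulosa cells were measured in 1 library per group, named by the labels. The authors deposited values on a natural log (ln) scale. Cell Ranger 2.2.0 is listed, per the submitters' processing notes. Build, annotation, cell filter and normalizing program are not stated in the sources used here. In all 10451 cells the values equalled the natural log of 1 plus 10000 times the UMIs over the cell's total, with all 177610 values above 0 whole within 0.0001, so UMIs and totals were worked back. The last row, held only in part, was left out. All deposited cells were kept and no doublet caller was run. Levels are summed UMIs over summed totals (CPM). Intervals are exact Poisson, or exact binomial for shares and ratios between libraries. Matched-depth ratios used 20 bins of equal cell number, a filter of 10 expected UMIs and a 1.5-fold rule. The functions were tested on simulated data. The rule for named rows took, per gene and direction, up to 6 symbol rows and 2 identifier rows past the rule, ranked by the geometric mean of both libraries' ratios, plus SAMSN1, CD96, CD80, CCDC80, COL8A1, ENSCHIG00000012599 and the adhesion lists. The 4 genes, the lists and the rules were chosen with earlier results of these data known. Alternatives changed cells, depth bins, filters, fold and measure. Of 117 symbols, 110 were in the RefSeq table. Python 3.11.15, numpy 2.4.6, pandas 2.3.3, scipy 1.17.1 and matplotlib 3.10.9 were used.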

Additional observations from a re-analysis of the deposited data

Results flagged for a closer look

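ENSCHIG00000012599 was at 0.441 (0.400 to 0.484) of the expected level in the 20 JAM2 cells of the high fertility library and at 1.11 (1.02 to 1.20) in the 5 JAM2 cells of the low. The opposite directions drew attention to it. The difference was not tested, and with 5 cells on 1 side it rests on very few cells.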

How the results depend on the processing

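No alternative can replace replicate libraries, so none was left out in turn, and depth limits JAM2 above all (21 and 5 UMIs). No paired analysis was possible because 1 library stands for each group. Of 31 recomputed library ratios, 26 stayed within the counting interval. The ALCAM ratio moved from 1.96 to 1.71 without cells above 15000 UMIs, 1.54 as a mean over cells, 2.26 in cells of 7500 or more UMIs and, reversed, 0.867 in cells below that bound. The LSAMP ratio was 1.73 standardised over depth. Of 30 recomputed ratios of shared cells 1 moved: without cells above 15000 UMIs, NECTIN3 and LSAMP shared 0 low fertility cells.

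Rows higher in ALCAM cells numbered 4 without cells above 15000 UMIs, 4 without cells holding SAMSN1 or CCDC80, 4 with 2 or more ALCAM UMIs, 5 as cells with a UMI and 6 at 30 expected UMIs, beside 10. Without cells above 15000 UMIs all 10 stayed above 1.5-fold in both libraries, but 4 met the minimum of expected UMIs, and the low fertility ADAMTS1 value there, 7.63 on 40 UMIs, was 0.954 without 1 cell. Rows lower in ALCAM cells were 2 without cells above 15000 UMIs and 2 at 3 expected UMIs, beside 0. For NECTIN3 the lower rows, 2 as reported, are SAMSN1 and CCDC80 themselves, so 1 without SAMSN1 cells, 1 without CCDC80 cells and 0 without both follow by construction. They were 0 as cells, 1 at 2-fold, 0 at 30 and 5 at 3 expected UMIs and 0 with 2 or more UMIs, and 1 row was higher without CCDC80 cells. Without cells above 15000 UMIs 2 rows were lower for NECTIN3, ENSCHIG00000012911 and GBE1 (named after their values were seen), and neither SAMSN1 nor CCDC80 met the minimum there. For JAM2 1 row was lower without cells above 15000 UMIs and without SAMSN1 or CCDC80 cells, and 1 higher at 3 expected UMIs. For LSAMP the lower rows, 4 as reported, were 0 without cells above 15000 UMIs, 1 without SAMSN1 cells, 2 without SAMSN1 or CCDC80 cells, 0 as cells, 2 at 2-fold, 0 at 30 and 9 at 3 expected UMIs and 2 with 2 or more UMIs. The rows with 2 or more UMIs were COX17 (named after its values were seen) and ENSCHIG00000012911, neither among the 4. Without SAMSN1 or CCDC80 cells they were DCBLD2, among the 4, and ENSCHIG00000022648, which was not. SAMSN1 drops out by construction where its cells are left out. Whatever the number expected, 2 of the 4 stayed past the fold without cells above 15000 UMIs (SAMSN1 at 0.202 and 0.148, ENSCHIG00000015902 at 0.0817 and 0), 2 as cells and 4 at 30 expected UMIs. Fewer rows could be counted under the stricter settings. The cause was not tested otherwise.

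Of 263 ratios of single rows 207 stayed within their interval and 5 turned, all but ADAMTS1 on 5 UMIs or fewer: ADAMTS1 in low fertility ALCAM cells to 0.983 as cells, CCDC80 in high fertility NECTIN3 cells to 1.27 and DCBLD2 in low fertility LSAMP cells to 1.02 with 2 or more UMIs of the gene held, and, without cells above 15000 UMIs, CCDC80 in low fertility NECTIN3 cells to 1.06 and TMEM50B in low fertility LSAMP cells to 1.19. With JAM2, no row met the minimum as cells or with 2 or more UMIs.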
